A study of Mus musculus with 8 samples.

Results

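The genes of glycolysis, the pentose phosphate pathway and the response to low oxygen were followed as 1 set of 39 genes in CD8 T cells sorted from mouse melanomas. The set was chosen by name, with no measured value in the rule, but with earlier results of these data known. It holds 25 genes of glycolysis and lactate handling, 6 genes of the pentose phosphate pathway and 8 genes of the hypoxia response. All 39 were among the 24976 genes of the deposited count table, and all 39 were among the 13073 genes that passed the filter on low counts and were tested.

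RNA was sequenced in bulk from tumour-infiltrating CD3e+CD8+ T cells in 8 libraries, 2 for each of 4 groups: dKO PD1+Tim3+, WT PD1+Tim3+, dKO PD1+Tim3- and WT PD1+Tim3-. B16-OVA cells, a mouse melanoma line that carries the antigen ovalbumin, were injected under the skin of Rag2-/- mice, which lack mature T and B cells, and CD8 T cells were transferred 10 days later and sorted on day 10 after the transfer. The donors labelled dKO carried Nr4a1 flox/flox, Nr4a2 flox/flox, a Cre recombinase named Cd8Cre and the OT-I Tg/+ T cell receptor against ovalbumin, and for the WT donors no label states whether OT-I was present, so genotype and receptor cannot be told apart in the dKO against WT comparisons. Every group therefore had the same tumour line, host and time, and a sample was what 1 implanted mouse gave. PD1 and Tim3 are inhibitory receptors, and among exhausted T cells the PD1+Tim3+ gate holds the terminally differentiated cells and the PD1+Tim3- gate the less differentiated ones. The series asks what loss of the nuclear receptors Nr4a1 and Nr4a2 changes in these populations.

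Glycolysis splits glucose into pyruvate, and activated T cells turn much of that pyruvate into lactate, which monocarboxylate transporters carry out of the cell. The pentose phosphate pathway branches off after glucose is phosphorylated and supplies NADPH and ribose. When oxygen is scarce, HIF-1 alpha escapes the prolyl hydroxylases that mark it for destruction and binds a short hypoxia response core near genes of glucose uptake, glycolysis, lactate export and mitophagy.

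Libraries held between 1944999 counts (dKO PD1+Tim3-, replicate 2) and 13418762 counts (WT PD1+Tim3+, replicate 2). The ribosomal RNA genes took 6.52% to 8.36% of counts in the PD1+Tim3+ libraries and 1.60% to 2.37% in the PD1+Tim3- libraries. This share thus moves with every population contrast, and its part in them was not tested. With these genes left out, 15 of the 16 member calls in WT described below remained, and calls over all genes went from 2223 to 2210. That refit keeps the members' own counts as they were, so it cannot show what part the share has. Nr4a1 stood at 1194 and 1175 CPM (counts relative to the TMM-scaled size of the library) in dKO PD1+Tim3+ libraries against 803 and 789 in WT PD1+Tim3+, and at 1331 and 1489 in dKO PD1+Tim3- against 979 and 824 in WT PD1+Tim3-. The higher level of Nr4a1 with the dKO label did not pass (adjusted p = 0.0944 in PD1+Tim3+ and 0.126 in PD1+Tim3- cells), but it goes against that label. Nr4a2, the other floxed gene, differed little between genotypes by the edgeR quasi-likelihood test. Its dKO over WT log2 fold change was -0.05 ± 0.11 (SE) for PD1+Tim3+ (adjusted p = 0.921) and -0.06 ± 0.11 for PD1+Tim3- (adjusted p = 0.914). Whole-gene counts thus showed no clear loss of either gene with the dKO label. The sources used here do not name the floxed exons, and a count over the whole gene can include parts that are not deleted, so dKO below means the libraries labelled dKO. The gate was seen in the data: Havcr2, which encodes Tim3, was higher in PD1+Tim3+ cells by 4.03 on the log2 scale in the libraries labelled dKO and by 3.82 in WT. On unscaled library totals Cd8a stood at 768 to 1310 CPM in the 8 libraries. On the same unscaled totals the 7 melanoma markers summed to 18.1 to 21.6 CPM, with Tyr at 14.6 to 17.3, Pmel at most 3.58, Mlana at 0 in 5 libraries and Sox10 at 0 in 7. In bulk RNA a smaller share of cells that express a gene and a lower level per cell cannot be told apart.

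In WT, 16 of the 39 members passed the test between WT PD1+Tim3+ and WT PD1+Tim3- cells (edgeR quasi-likelihood test, adjusted p under 0.05 over all genes), against 17.0% of all genes tested. Of these 16, 13 rose in PD1+Tim3+ cells, where the background of genes called higher was 8.25%, and 3 fell, with a background of 8.76%. The risers were the glucose transporters Slc2a1 and Slc2a3, 7 glycolytic enzymes, the lactate exporter Slc16a3, Pgls of the pentose phosphate pathway, and Bnip3 and Hif1a of the hypoxia group. Eno3, Pfkfb4 and Higd1a fell. The same comparison in the libraries labelled dKO called 1 member, Higd1a, which was higher in PD1+Tim3+ cells, against 9.93% of all genes called and 5.21% called higher. Between genotypes 1 member was called in PD1+Tim3+ cells, Slc16a3, which fell in the libraries labelled dKO, against 0.627% of all genes. In PD1+Tim3- cells the genotype contrast called 0 members, against 0.0459% of all genes.

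The median log2 fold change of the 39 members between PD1+Tim3+ and PD1+Tim3- was 0.08 in the dKO-labelled libraries and 0.25 in WT, beside medians over all genes tested of 0.01 in both. Between dKO and WT the members had medians of -0.22 (PD1+Tim3+ cells) and 0.06 (PD1+Tim3- cells), beside medians of all genes of 0.01 and -0.01. Relative to its mean over the 8 libraries, the median member stood at 0.02 and -0.04 in dKO PD1+Tim3+, 0.18 and 0.15 in WT PD1+Tim3+, -0.09 and -0.04 in dKO PD1+Tim3-, and -0.07 and -0.05 in WT PD1+Tim3-. Both WT PD1+Tim3+ libraries thus lay above the other 6 on this measure, and the other 6 lay close together. As a share of unscaled counts, the 39 members took 0.664% and 0.611% in dKO PD1+Tim3+, 0.796% and 0.766% in WT PD1+Tim3+, 0.587% and 0.598% in dKO PD1+Tim3-, and 0.488% and 0.5997% in WT PD1+Tim3-.

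**Figure D1:**
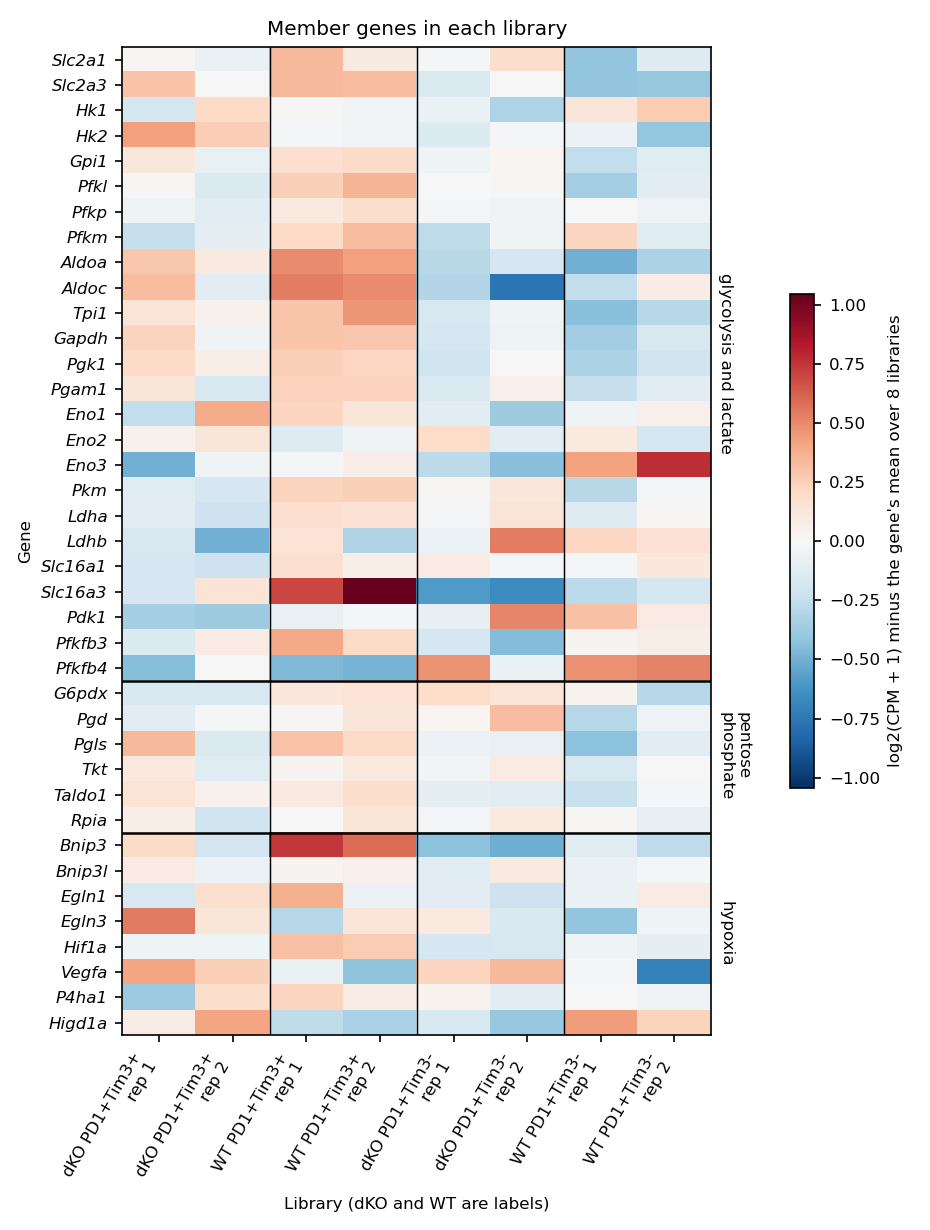
Heat map of the 39 member genes (rows) in the 8 libraries (columns), in which colour gives log2(CPM + 1) minus the gene's mean over the 8 libraries and lines part the 4 groups and the 3 gene groups. The 2 WT PD1+Tim3+ columns are red in most rows, while Higd1a near the bottom is red in dKO PD1+Tim3+ and WT PD1+Tim3- and blue in the other 2 groups.

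Promoters are shown for 5 members on which the results turn: the exporter Slc16a3, the 2 glycolytic enzymes Aldoa and Tpi1 whose WT calls held under every alternative, Bnip3 with the largest number of hypoxia cores among these 5, and Higd1a, called in opposite directions in the 2 genotypes. Each is 300 bases from RefSeq on GRCm38.p6, from 250 bases before to 50 after the transcription start, written 5′ to 3′ on the strand of the gene, with capitals marking the hypoxia response core (ACGTG or GCGTG, read on either strand).
Slc16a3, chr11:120948817-120949116, plus strand: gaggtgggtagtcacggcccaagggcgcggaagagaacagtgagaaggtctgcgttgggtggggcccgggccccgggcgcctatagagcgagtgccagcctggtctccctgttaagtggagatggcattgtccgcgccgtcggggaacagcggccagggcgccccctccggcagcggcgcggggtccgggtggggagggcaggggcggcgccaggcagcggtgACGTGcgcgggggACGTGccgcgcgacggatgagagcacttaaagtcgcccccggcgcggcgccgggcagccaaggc
Aldoa, chr7:126799205-126799504, minus strand: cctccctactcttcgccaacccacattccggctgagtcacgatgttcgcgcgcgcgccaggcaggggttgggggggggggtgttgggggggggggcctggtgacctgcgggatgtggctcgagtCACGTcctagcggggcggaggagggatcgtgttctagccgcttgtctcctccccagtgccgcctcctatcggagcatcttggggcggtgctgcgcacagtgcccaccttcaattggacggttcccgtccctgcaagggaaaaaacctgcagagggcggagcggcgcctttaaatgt
Tpi1, chr6:124814109-124814408, minus strand: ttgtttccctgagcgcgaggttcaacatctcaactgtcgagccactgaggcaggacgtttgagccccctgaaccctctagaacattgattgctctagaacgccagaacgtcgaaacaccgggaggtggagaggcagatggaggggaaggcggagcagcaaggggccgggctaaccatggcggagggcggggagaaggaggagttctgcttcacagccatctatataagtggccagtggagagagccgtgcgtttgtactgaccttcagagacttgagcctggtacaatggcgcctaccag
Bnip3, chr7:138909457-138909756, minus strand: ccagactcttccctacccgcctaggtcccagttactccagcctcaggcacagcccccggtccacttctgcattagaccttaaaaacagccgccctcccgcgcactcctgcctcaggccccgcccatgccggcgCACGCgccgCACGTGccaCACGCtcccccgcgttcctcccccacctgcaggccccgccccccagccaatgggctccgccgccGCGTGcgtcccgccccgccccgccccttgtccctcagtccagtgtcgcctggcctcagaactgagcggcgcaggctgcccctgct
Higd1a, chr9:121857747-121858046, minus strand: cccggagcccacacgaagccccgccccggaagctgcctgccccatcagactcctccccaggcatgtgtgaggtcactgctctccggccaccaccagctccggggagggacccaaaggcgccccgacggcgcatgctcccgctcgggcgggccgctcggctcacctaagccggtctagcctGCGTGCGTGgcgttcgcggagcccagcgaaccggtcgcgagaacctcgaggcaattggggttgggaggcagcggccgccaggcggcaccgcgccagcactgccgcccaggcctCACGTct
The Slc16a3 window holds 2 cores, the Bnip3 window 5, the Higd1a window 3, the Aldoa window 1 and the Tpi1 window none of these letters. Aldoa has further starts in RefSeq, and the one printed is the only member window with an AP-1 motif (TGAGTCA or TGACTCA).

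RefSeq windows were matched for 37 of the 39 members, all but Slc2a3 and Bnip3l, 52 windows in all. The core was present in 42 of the 52 member windows, 80.8%, and in 14380 of 32851 windows of all genes, 43.8%. Member windows were also richer in CG pairs, with a median of 20 against 7 over all windows, and both cores contain a CG pair. The E-box CACGTG, which overlaps the core, was found in 6 member windows (11.5%) and 7.15% of all windows. The NR4A monomer motif AAAGGTCA was found in 1 member window, that of Eno1 (1.92%), and in 1.51% of all windows, and the AP-1 motif in 1.92% of member windows and 5.20% of all. These matches describe letters and not binding.

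Glucose enters T cells through the transporters GLUT1 and GLUT3, encoded by Slc2a1 and Slc2a3, and is trapped by the hexokinases Hk1 and Hk2. Unless another contrast is named, values with an SE are log2 fold changes of PD1+Tim3+ over PD1+Tim3- cells from the edgeR fit. Slc2a3 lies on chromosome 6 from 122727809 to 122801640 (GRCm38, minus strand). It stood at 55.8 and 45.1 CPM in dKO PD1+Tim3+, 57.5 and 56.8 in WT PD1+Tim3+, 40.7 and 45.1 in dKO PD1+Tim3-, and 33.7 and 34.2 in WT PD1+Tim3-. The WT libraries of the 2 populations lay well apart, with all 4 dKO libraries between them. Slc2a3 rose in PD1+Tim3+ cells in WT by a log2 fold change of 0.75 ± 0.12 (SE, adjusted p = 0.00321), while the value in the libraries labelled dKO was 0.25 ± 0.13 (adjusted p = 0.277). Slc2a1 stood at 112 and 105 CPM in dKO PD1+Tim3+, 140.3 and 119 in WT PD1+Tim3+, 109.7 and 126 in dKO PD1+Tim3-, and 83.3 and 101 in WT PD1+Tim3-. It rose in WT PD1+Tim3+ cells by 0.49 ± 0.13 (adjusted p = 0.0268), against -0.11 ± 0.14 in the libraries labelled dKO (adjusted p = 0.704). In WT the 2 populations did not overlap for Slc2a1, and in the libraries labelled dKO the PD1+Tim3+ libraries straddled the lower PD1+Tim3- one. Over the 22 alternatives Slc2a3 passed in all and Slc2a1 in 16, with adjusted p-values up to 0.235. The hexokinases did not pass in either genotype. Hk2, the inducible isoform, had PD1+Tim3+ over PD1+Tim3- log2 fold changes of 0.46 ± 0.15 in the libraries labelled dKO (adjusted p = 0.084) and 0.19 ± 0.14 in WT (adjusted p = 0.38), and its 2 dKO PD1+Tim3+ libraries, at 40.4 and 35.8 CPM, were the highest of the 8. Hk1 had 0.19 ± 0.15 in the dKO-labelled libraries and -0.21 ± 0.14 in WT. Per kb of median transcript length Hk1 stood above Hk2 in every group, at 11.2 against 7.03 CPM per kb in WT PD1+Tim3+ cells. In WT PD1+Tim3- cells the values were 13.0 and 6.09.

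The upper steps turn glucose-6-phosphate into triose phosphates through glucose-6-phosphate isomerase (Gpi1), phosphofructokinase (Pfkl, Pfkp, Pfkm), aldolase (Aldoa, Aldoc) and triose phosphate isomerase (Tpi1). Of these 7 genes, 4 rose in WT PD1+Tim3+ cells, 57.1% against 8.25% of all genes called higher. All 7 had positive values, with a median of 0.57. In the libraries labelled dKO none of the 7 passed with edgeR or DESeq2, and limma-voom called Aldoa. An unadjusted p under 0.05 was reached by 1, against 23.7% of all genes. Of the 7, 5 were positive, and the median was 0.04. Aldoa lies on chromosome 7 from 126795234 to 126800751 and Tpi1 on chromosome 6 from 124810586 to 124814296, both on the minus strand (GRCm38). Aldoa stood at 544 and 475 CPM in dKO PD1+Tim3+, 628 and 602 in WT PD1+Tim3+, 364 and 395 in dKO PD1+Tim3-, and 315 and 355 in WT PD1+Tim3-. The PD1+Tim3+ libraries lay above the PD1+Tim3- libraries in both genotypes, and the WT PD1+Tim3+ pair lay highest. The log2 fold change of Aldoa was 0.43 ± 0.13 in the libraries labelled dKO (adjusted p = 0.0565), and in WT it rose by 0.88 ± 0.13 (adjusted p = 0.002). Tpi1 stood at 208 and 194 CPM in dKO PD1+Tim3+, 230.2 and 259 in WT PD1+Tim3+, 167 and 182 in dKO PD1+Tim3-, and 138 and 154 in WT PD1+Tim3-. The order of the 4 groups was thus the same as for Aldoa, with no overlap between neighbouring groups. Tpi1 had a PD1+Tim3+ over PD1+Tim3- value of 0.21 ± 0.12 in the libraries labelled dKO (adjusted p = 0.321) and rose by 0.74 ± 0.12 in WT (adjusted p = 0.00294). Both passed in WT under all 22 alternatives.

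Pfkl, the liver-type phosphofructokinase, stood at 30.3 and 27.0 CPM in dKO PD1+Tim3+, 35.9 and 38.8 in WT PD1+Tim3+, 30.0 and 30.4 in dKO PD1+Tim3-, and 23.3 and 27.6 in WT PD1+Tim3-. The dKO libraries of both populations sat together, below the WT PD1+Tim3+ pair and, apart from replicate 2 of dKO PD1+Tim3+, above the WT PD1+Tim3- pair. Its PD1+Tim3+ over PD1+Tim3- log2 fold change was -0.07 ± 0.14 in the libraries labelled dKO (adjusted p = 0.811), and in WT it rose by 0.57 ± 0.13 (adjusted p = 0.0108, called in 18 of 22 alternatives). Gpi1 stood at 280.0 and 244 CPM in dKO PD1+Tim3+, 292 and 296 in WT PD1+Tim3+, 249.7 and 261 in dKO PD1+Tim3-, and 215 and 236 in WT PD1+Tim3-. The WT populations were apart and the dKO populations overlapped. Gpi1 had 0.04 ± 0.12 in the libraries labelled dKO (adjusted p = 0.899) and rose by 0.38 ± 0.12 in WT (adjusted p = 0.0456), a call that held in 12 of 22 alternatives. Pfkp, the platelet-type isoform, did not pass in either genotype, yet it was the main phosphofructokinase by level: 70.7 CPM per kb in WT PD1+Tim3+ cells, against 10.0 for Pfkl and 1.47 for Pfkm. Aldoa likewise stood at 414 CPM per kb in that group and Aldoc at 2.91. Aldoc, at few counts, had 0.69 ± 0.37 in the dKO-labelled libraries and 0.73 ± 0.28 in WT, and passed in neither.

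The lower steps yield ATP and pyruvate through Gapdh, Pgk1, Pgam1, the enolases Eno1, Eno2 and Eno3, and pyruvate kinase (Pkm). In WT, 3 of these 7 rose in PD1+Tim3+ cells and Eno3 fell, against 8.25% of all genes called higher and 8.76% called lower. In the libraries labelled dKO none of the 7 was called by edgeR, DESeq2 or limma-voom. None reached an unadjusted p under 0.05, against 23.7% of all genes. Gapdh stood at 1275 and 1059 CPM in dKO PD1+Tim3+, 1327 and 1323 in WT PD1+Tim3+, 964 and 1049 in dKO PD1+Tim3-, and 844 and 969 in WT PD1+Tim3-. PD1+Tim3+ libraries were above PD1+Tim3- libraries of their genotype, by a narrow margin for replicate 2 of dKO PD1+Tim3+. Its log2 fold change was 0.21 ± 0.13 in the libraries labelled dKO (adjusted p = 0.371), and it rose by 0.55 ± 0.13 in WT (adjusted p = 0.0172, called in 18 of 22 alternatives). Pgk1, which makes ATP, stood at 367 and 335 CPM in dKO PD1+Tim3+, 379.7 and 372 in WT PD1+Tim3+, 277 and 319 in dKO PD1+Tim3-, and 253 and 276 in WT PD1+Tim3-. The populations did not overlap in either genotype. Pgk1 had 0.24 ± 0.12 in the libraries labelled dKO (adjusted p = 0.266) and rose by 0.51 ± 0.12 in WT (adjusted p = 0.016, called in 18 of 22 alternatives). Pgam1 stood at 243 and 199.7 CPM in dKO PD1+Tim3+, 263 and 264 in WT PD1+Tim3+, 201 and 231 in dKO PD1+Tim3-, and 189 and 206 in WT PD1+Tim3-. The dKO populations overlapped, and replicate 2 of dKO PD1+Tim3+ was the lowest of those 4 libraries. Pgam1 had 0.04 ± 0.13 in the libraries labelled dKO (adjusted p = 0.909) and rose by 0.42 ± 0.13 in WT (adjusted p = 0.0471), a call that held in 10 of 22 alternatives.

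Eno3, the muscle-type enolase, stood at 13.0 and 18.3 CPM in dKO PD1+Tim3+, 18.7 and 19.9 in WT PD1+Tim3+, 15.4 and 13.6 in dKO PD1+Tim3-, and 25.5 and 32.8 in WT PD1+Tim3-. The WT PD1+Tim3- libraries were the highest of the 8. Eno3 had 0.08 ± 0.22 in the libraries labelled dKO (adjusted p = 0.881) and fell in WT PD1+Tim3+ cells with a log2 fold change of -0.57 ± 0.17 (adjusted p = 0.0405, called in 14 of 22 alternatives). Eno1, the main enolase at 438 CPM per kb in WT PD1+Tim3+ cells against 13.2 for Eno3 and 0.68 for Eno2, passed in no contrast. Its replicates spread widely in dKO PD1+Tim3+ cells, at 638 and 996 CPM, against 889 and 834 in WT PD1+Tim3+. Eno1 has a near-identical copy, Eno1b, with which reads can be shared, and summing both left it uncalled in all 5 contrasts. Pkm stood at 624 and 602 CPM in dKO PD1+Tim3+, 799.5 and 812 in WT PD1+Tim3+, 686 and 738 in dKO PD1+Tim3-, and 558 and 675 in WT PD1+Tim3-. The dKO PD1+Tim3+ libraries lay below the dKO PD1+Tim3- libraries, while the WT PD1+Tim3+ libraries lay above the WT PD1+Tim3- ones. The log2 fold changes of Pkm were -0.21 ± 0.13 (adjusted p = 0.342) in the dKO-labelled libraries and 0.39 ± 0.13 (adjusted p = 0.0585) in WT, and neither passed with edgeR. In WT, Pkm was called in 8 of 22 alternatives, limma-voom among them, with adjusted p-values from 0.0217 to 0.339.

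**Figure D2:**
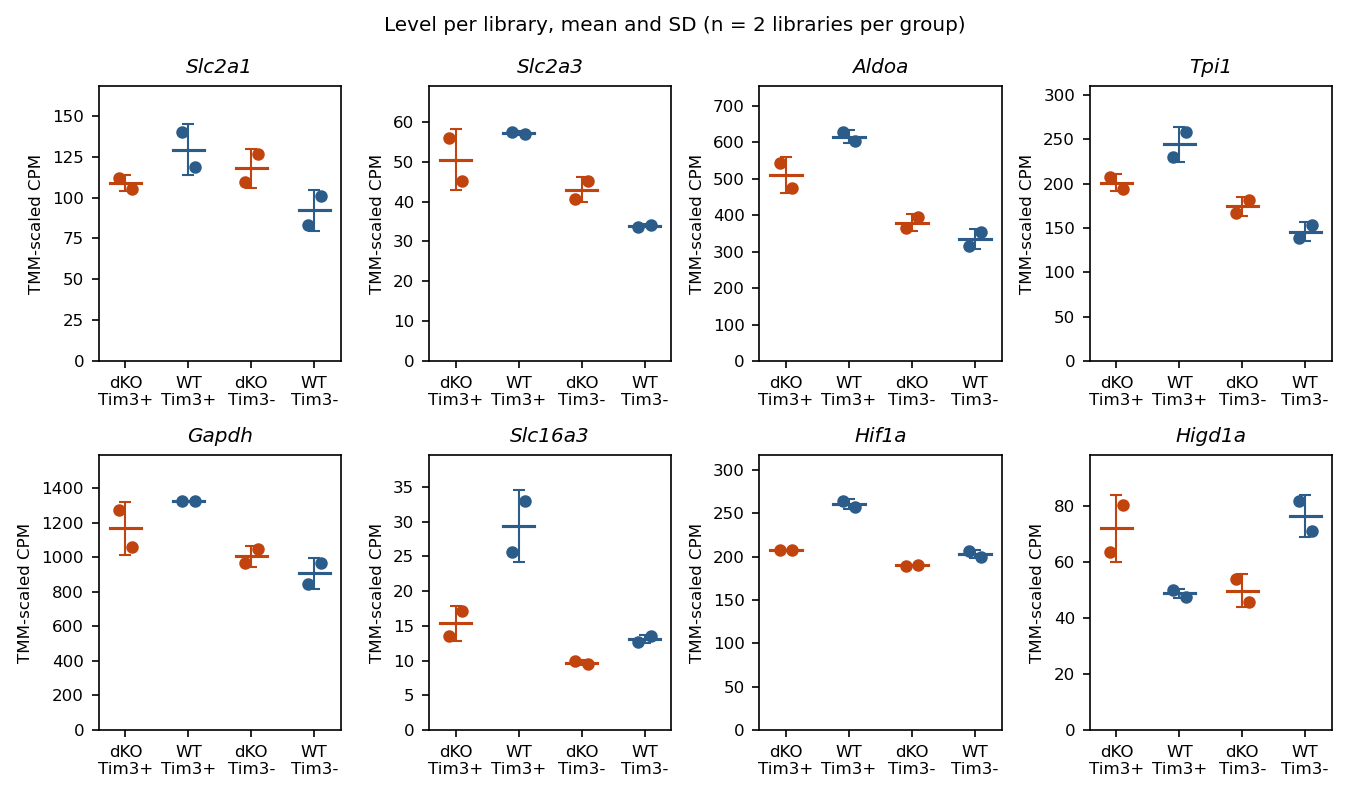
TMM-scaled CPM of 8 member genes in each library (points), with the group mean (bar) and SD (whiskers, n = 2) for dKO and WT cells of each population. WT PD1+Tim3+ has the highest mean for 7 of the 8 genes, and Higd1a is the exception, at 49.99 and 47.6 CPM in that group.

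Lactate is made by lactate dehydrogenase (Ldha, Ldhb) and carried by the monocarboxylate transporters MCT1 (Slc16a1) and MCT4 (Slc16a3), of which MCT4 is the exporter of highly glycolytic cells. Slc16a3, on chromosome 11 from 120948480 to 120960868 (GRCm38, plus strand), was the one lactate gene called. It stood at 13.6 and 17.2 CPM in dKO PD1+Tim3+, 25.7 and 33.0 in WT PD1+Tim3+, 9.95 and 9.45 in dKO PD1+Tim3-, and 12.7 and 13.5 in WT PD1+Tim3-. The WT PD1+Tim3+ pair stood apart above all other libraries, and in each population the dKO pair lay below the WT pair. Between populations Slc16a3 had a log2 fold change of 0.65 ± 0.22 in the libraries labelled dKO (adjusted p = 0.0977) and rose 2.29-fold in WT, 1.19 ± 0.17 (adjusted p = 0.00199), which held in all 22 alternatives.

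Between genotypes Slc16a3 fell in PD1+Tim3+ cells labelled dKO to 0.517 of the WT level, a log2 fold change of -0.95 ± 0.17 (adjusted p = 0.0318), and was at -0.41 ± 0.23 in PD1+Tim3- cells (adjusted p = 0.679). The call in PD1+Tim3+ cells held in 14 of 21 alternatives, in which the log2 fold change ran from -1.14 to -0.75 and the adjusted p from 3.32e-06 to 0.455. Without WT PD1+Tim3+ replicate 2, its highest library, the adjusted p was 0.455, and without WT PD1+Tim3+ replicate 1 it was 0.0721. Leaving out dKO PD1+Tim3- replicate 1 or 2, which are not part of this contrast but enter the fit, its filter and its adjustment, gave 0.0726 and 0.0748, and DESeq2 gave 0.07. The interaction, which is the PD1+Tim3+ over PD1+Tim3- change in dKO minus that in WT, was -0.54 ± 0.29 for Slc16a3 (adjusted p = 0.57), so the genotype effect was not shown to differ between populations.

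Ldha stood at 547 and 508 CPM in dKO PD1+Tim3+, 665 and 653 in WT PD1+Tim3+, 582 and 648 in dKO PD1+Tim3-, and 538 and 595 in WT PD1+Tim3-. The dKO PD1+Tim3+ libraries were below those of WT PD1+Tim3+ and below those of dKO PD1+Tim3-. No contrast of Ldha passed, with -0.22 ± 0.12 between populations in the libraries labelled dKO, 0.22 ± 0.12 in WT, and -0.32 ± 0.12 between genotypes in PD1+Tim3+ cells (adjusted p = 0.303, 0.243 and 0.305 in that order). Ldha far exceeded Ldhb by level, at 415 against 3.72 CPM per kb in WT PD1+Tim3+ cells. Slc16a1 did not pass in any contrast, with -0.24 ± 0.11 between populations in the dKO-labelled libraries and 0.06 ± 0.10 in WT.

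Of the regulators, Pfkfb3 and Pfkfb4 set the level of fructose-2,6-bisphosphate, an activator of phosphofructokinase, and Pdk1 inhibits pyruvate dehydrogenase, which turns pyruvate into acetyl-CoA. Pfkfb4 stood at 2.61 and 3.88 CPM in dKO PD1+Tim3+, 2.55 and 2.50 in WT PD1+Tim3+, 5.79 and 3.67 in dKO PD1+Tim3-, and 5.83 and 6.01 in WT PD1+Tim3-. At these low counts the WT pairs agreed closely and the dKO populations overlapped. Pfkfb4 had -0.66 ± 0.35 in the libraries labelled dKO (adjusted p = 0.283) and fell in WT PD1+Tim3+ cells with a log2 fold change of -1.22 ± 0.29 (adjusted p = 0.0161, called in 17 of 22 alternatives). Pfkfb3, at 72.9 ± 8.26 CPM in dKO PD1+Tim3+ and 91.9 ± 9.0 in WT PD1+Tim3+ (mean and SD, n = 2), and Pdk1, at 15.9 ± 0.217 and 20.0 ± 0.665, passed in no contrast. Pdk1 was lowest in dKO PD1+Tim3+, where both libraries lay below the other 6, with a log2 fold change between populations of -0.53 ± 0.20 in the libraries labelled dKO (adjusted p = 0.132) and -0.26 ± 0.17 in WT (adjusted p = 0.333).

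The pentose phosphate genes were at moderate levels. G6pdx and Pgd make NADPH, Pgls hydrolyses the lactone between them, and Rpia, Tkt and Taldo1 rearrange the sugars. In WT 1 of the 6, Pgls, rose in PD1+Tim3+ cells, 16.7% against 8.25% of all genes called higher. All 6 had positive values, with a median of 0.25. In the libraries labelled dKO none was called by edgeR, DESeq2 or limma-voom, against 9.93% of all genes with edgeR. None reached an unadjusted p under 0.05, against 23.7% of all genes. Of the 6, 2 were positive and the median was -0.06. Pgls stood at 117 and 82.6 CPM in dKO PD1+Tim3+, 113 and 106 in WT PD1+Tim3+, 88.1 and 87.1 in dKO PD1+Tim3-, and 68.0 and 85.0 in WT PD1+Tim3-. The WT populations were apart, and the dKO PD1+Tim3+ libraries fell on either side of the dKO PD1+Tim3- pair. Pgls had 0.19 ± 0.17 in the libraries labelled dKO (adjusted p = 0.552) and rose by 0.52 ± 0.16 in WT (adjusted p = 0.0447), a call that held in 14 of 22 alternatives. G6pdx, whose enzyme sets the flux into the pathway, stood at 17.3 and 17.2 CPM in dKO PD1+Tim3+, 21.1 and 21.5 in WT PD1+Tim3+, 22.3 and 21.5 in dKO PD1+Tim3-, and 19.9 and 15.5 in WT PD1+Tim3-. Its population values had opposite signs, -0.35 ± 0.17 in the libraries labelled dKO (adjusted p = 0.226) and 0.25 ± 0.14 in WT (adjusted p = 0.267). Pgd likewise had -0.22 ± 0.14 in the dKO-labelled libraries and 0.26 ± 0.13 in WT, neither of which passed. Between genotypes the 6 genes had a median of -0.13 in PD1+Tim3+ cells, all negative, and 0.16 in PD1+Tim3- cells, all positive, with 0 called in each by edgeR, by DESeq2 and by limma-voom. Of all genes edgeR called 0.627% in PD1+Tim3+ and 0.0459% in PD1+Tim3- cells, so few calls could arise among 6 genes. An unadjusted p under 0.05 was reached by 0 of the 6 in PD1+Tim3+ cells, beside 1570 of the 13073 genes tested. In PD1+Tim3- cells it was reached by 1, Pgd, beside 1081 of 13073. The PD1+Tim3+ median ran from -0.24 to 0.01 over the alternatives, so its sign was not kept in all.

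The hypoxia group holds the oxygen-regulated factor itself (Hif1a), prolyl hydroxylases that mark it (Egln1, Egln3), mitophagy receptors (Bnip3, Bnip3l), the collagen prolyl hydroxylase P4ha1, the angiogenic factor Vegfa and Higd1a, a mitochondrial inner membrane protein. In WT 2 of the 8 rose in PD1+Tim3+ cells and 1 fell, against 8.25% of all genes called higher and 8.76% called lower. The median was 0.16. With the dKO label 1 of the 8 rose, against 5.21% of all genes called higher, and the median was 0.14. Bnip3 stood at 8.38 and 6.10 CPM in dKO PD1+Tim3+, 12.6 and 11.2 in WT PD1+Tim3+, 5.07 and 4.72 in dKO PD1+Tim3-, and 6.54 and 5.80 in WT PD1+Tim3-. It was highest in WT PD1+Tim3+ and lowest in dKO PD1+Tim3-, with PD1+Tim3+ above PD1+Tim3- in each genotype. Bnip3 had 0.54 ± 0.28 in the libraries labelled dKO (adjusted p = 0.274) and rose 1.89-fold in WT, 0.92 ± 0.21 (adjusted p = 0.0123, called in 17 of 22 alternatives). Hif1a, on chromosome 12 from 73901375 to 73947530 (GRCm38, plus strand), stood at 207 and 207 CPM in dKO PD1+Tim3+, 264 and 257 in WT PD1+Tim3+, 189 and 191 in dKO PD1+Tim3-, and 207 and 200.05 in WT PD1+Tim3-. Replicates lay close together, and WT PD1+Tim3+ stood above the other 3 groups. Hif1a had 0.13 ± 0.10 in the libraries labelled dKO (adjusted p = 0.517) and rose by 0.36 ± 0.10 in WT (adjusted p = 0.036), a call that held in 12 of 22 alternatives.

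Egln1, Bnip3l, P4ha1 and Vegfa had population values between -0.05 and 0.17 in both genotypes and passed in no contrast. Egln3 had 0.35 ± 0.23 in the dKO-labelled libraries and 0.22 ± 0.21 in WT, and did not pass. Vegfa, at 2.28 to 6.14 CPM, had genotype values of 0.76 ± 0.31 in PD1+Tim3+ cells (adjusted p = 0.354) and 0.66 ± 0.37 in PD1+Tim3- cells (adjusted p = 0.679).

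Higd1a was called in both population contrasts, in opposite directions. The gene lies on chromosome 9 from 121848563 to 121858362 (GRCm38, minus strand). It stood at 63.7 and 80.5 CPM in dKO PD1+Tim3+, 49.99 and 47.6 in WT PD1+Tim3+, 53.9 and 45.7 in dKO PD1+Tim3-, and 81.9 and 71.1 in WT PD1+Tim3-. The dKO PD1+Tim3+ and WT PD1+Tim3- libraries were high and the other 4 low, with no overlap between these sets of libraries. Higd1a rose in PD1+Tim3+ cells labelled dKO by 0.51 ± 0.14 (adjusted p = 0.0493) and fell in WT PD1+Tim3+ cells with a log2 fold change of -0.66 ± 0.13 (adjusted p = 0.00785). The test of the difference itself, the interaction, gave 1.16 ± 0.20 with an adjusted p of 0.2, which did not pass. The call in the libraries labelled dKO held in 9 of 22 alternatives, with adjusted p-values from 0.00939 to 0.406, and was lost without either dKO PD1+Tim3- library (0.127 without replicate 1 and 0.227 without replicate 2), without dKO PD1+Tim3+ replicate 2 (0.202) and without WT PD1+Tim3+ replicate 1 or 2 (0.0926 and 0.0928). In WT the call held in 19 of 22 and was lost without WT PD1+Tim3- replicate 1 (0.0883) and without WT PD1+Tim3+ replicate 1 or 2 (0.064 and 0.0874). Between genotypes Higd1a had 0.57 ± 0.13 in PD1+Tim3+ cells (adjusted p = 0.122) and -0.60 ± 0.14 in PD1+Tim3- cells (adjusted p = 0.248).

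**Figure D3:**
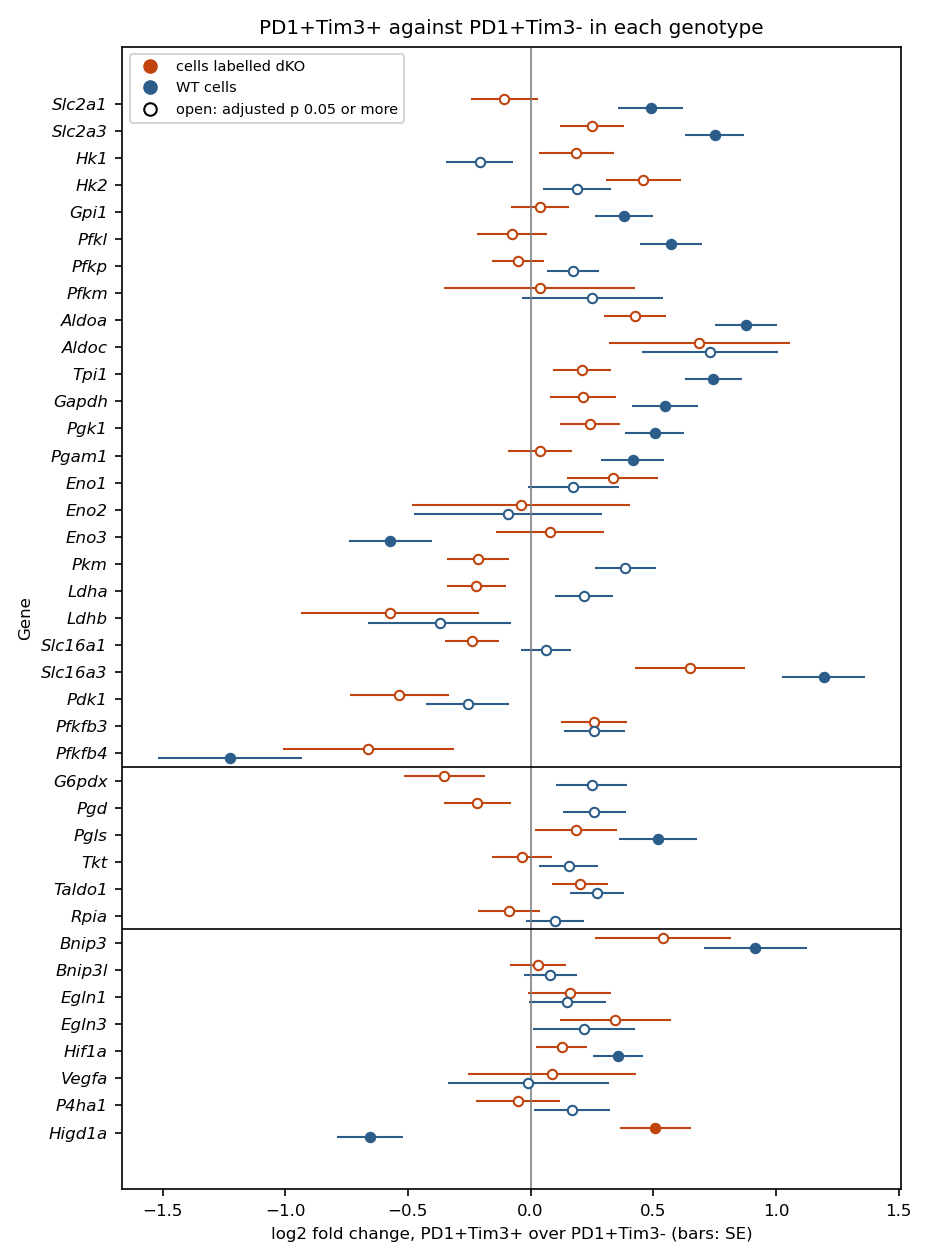
Log2 fold change of each member gene in PD1+Tim3+ over PD1+Tim3- cells, for libraries labelled dKO and for WT libraries (bars are SE, filled points have an adjusted p under 0.05). In WT 16 points are filled, 13 of them to the right of 0, and in the libraries labelled dKO the only filled point is Higd1a.

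The number of members called in WT depended on single libraries. Without either WT PD1+Tim3+ library, or without WT PD1+Tim3- replicate 1, 4 members were called: Slc2a3, Aldoa, Tpi1 and Slc16a3. Calls over all genes dropped in the same fits, to 433 and 614 without WT PD1+Tim3+ replicate 1 or 2 and to 551 without WT PD1+Tim3- replicate 1, against 2223 with all libraries. Without WT PD1+Tim3- replicate 2, or without either dKO PD1+Tim3- library, 11 members were called, with 1781, 1906 and 1897 of all genes. Without either dKO PD1+Tim3+ library 17 were called, with 2773 and 2756 of all genes. DESeq2 called 7 members, all among the 16, and 1303 genes in all. In WT, 26 of the 39 members had both PD1+Tim3+ libraries above both PD1+Tim3- libraries, against 32.7% of all genes tested, and 6 lay wholly below, against 30.3% of all genes. In the libraries labelled dKO 13 members lay wholly above, against 26.2% of all genes, and 8 wholly below, against 24.7%.

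Between genotypes in PD1+Tim3+ cells, the members' values were mostly negative: 32 of 39 were below 0 and 7 above, with 6408 of the 13073 tested genes below 0. Of the 25 glycolysis and lactate genes 21 were negative, with a median of -0.25, and all 7 upper-step genes and all 4 lactate genes were among them. Only Slc16a3 passed. Further members with small errors lay on both sides of 0 and did not pass. Higd1a was at 0.57 ± 0.13 (adjusted p = 0.122) and Hk2 at 0.38 ± 0.13 (adjusted p = 0.266). Below 0 were Pkm, -0.39 ± 0.13 (adjusted p = 0.228), Pfkl, -0.39 ± 0.12 (adjusted p = 0.228), Hif1a, -0.33 ± 0.10 (adjusted p = 0.218), and Slc16a1, -0.31 ± 0.10 (adjusted p = 0.244). Both dKO libraries lay below both WT libraries for 23 members, against 20.7% of all genes, and above for 5, against 20.7%. At an unadjusted p under 0.05, 9 members were lower and 3 higher, against 4.91% and 7.10% of all genes. Over the alternatives the median of the 39 ran from -0.28 to -0.18 and that of the glycolysis and lactate genes from -0.33 to -0.19.

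In PD1+Tim3- cells the genotype values were spread about 0, with 22 members above and 17 below. The 6 pentose phosphate genes and 13 of the 25 glycolysis and lactate genes were positive, and 5 of the 8 hypoxia genes were negative. No member passed with edgeR, DESeq2 or limma-voom. At an unadjusted p under 0.05 there were 7 members, 3 higher and 4 lower, against 8.27% of all genes in both directions. The transporters Slc2a1, 0.35 ± 0.14, and Slc2a3, 0.32 ± 0.13, had adjusted p-values of 0.569 and 0.582, and Eno3 had -0.96 ± 0.20 (adjusted p = 0.157). The dKO libraries lay wholly above WT for 12 members and wholly below for 11, against 20.3% and 21.0% of all genes.

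**Figure D4:**
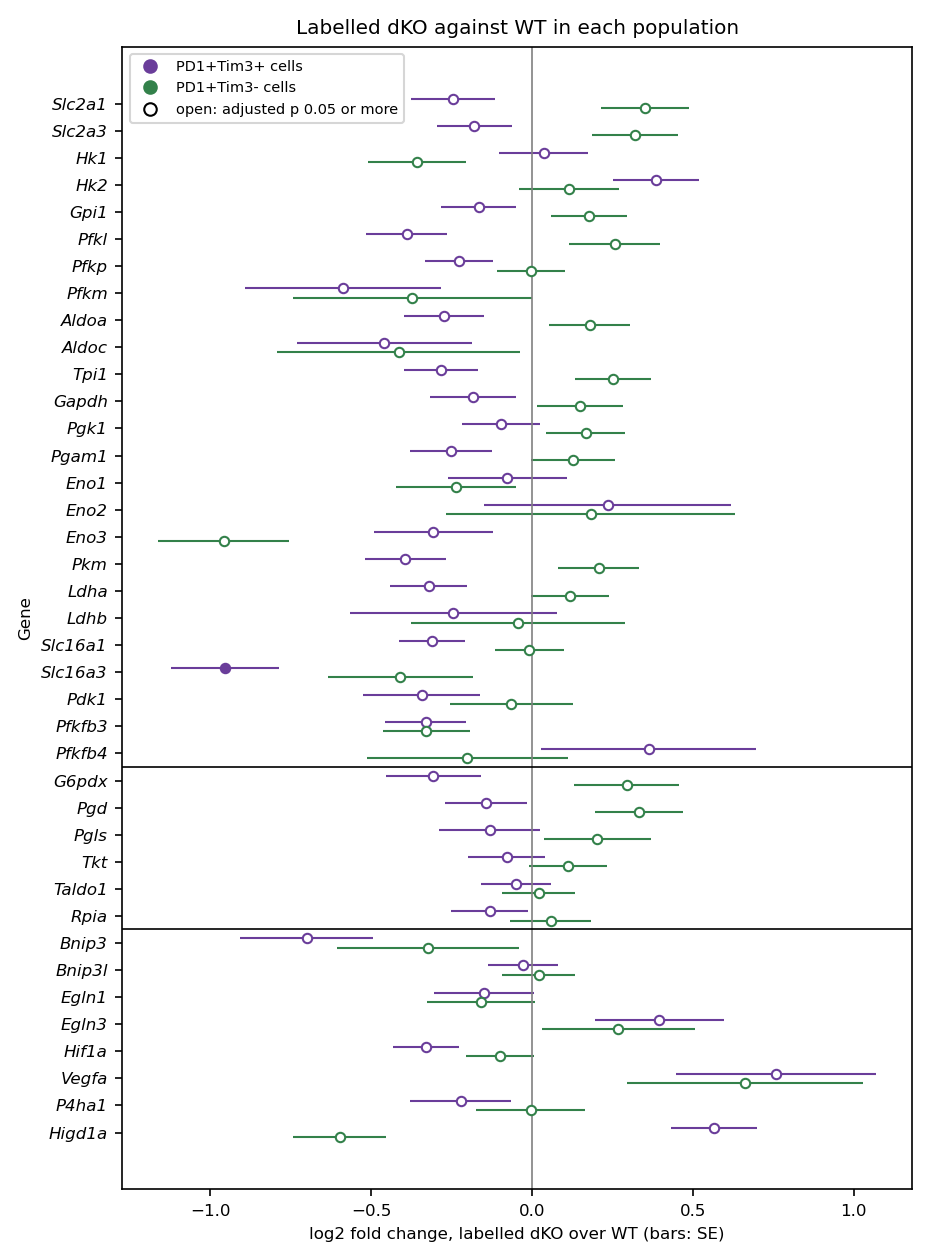
Log2 fold change of each member gene in cells labelled dKO over WT, for PD1+Tim3+ and for PD1+Tim3- cells (bars are SE, filled points have an adjusted p under 0.05). Points of PD1+Tim3+ cells lie left of 0 for 32 of 39 genes, and only that of Slc16a3 is filled.

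The interaction asks whether the population change differs by genotype. No member passed, and neither did any of the 13073 genes, with edgeR or with limma-voom, while DESeq2 called 95 genes, Higd1a among them as the 1 member. At an unadjusted p under 0.05, 9 members were lower and 2 higher, against 4.22% and 5.87% of all genes. The 9 were Slc2a1, Slc2a3, Pfkl, Aldoa, Tpi1, Pkm, Ldha, G6pdx and Pgd, with log2 values from -0.65 for Pfkl to -0.44 for Ldha and adjusted p-values of 0.277 to 0.427. Higd1a and Eno3 (0.65 ± 0.28, adjusted p = 0.459) were the 2 higher. Of all members 29 were negative and 10 positive, with a median of -0.22. By group the medians were -0.28 for glycolysis and lactate, -0.26 for pentose phosphate and -0.02 for hypoxia. The change between populations was therefore called for more members in WT than in the libraries labelled dKO, but the edgeR fit showed no single gene to differ in that change. Higd1a, the member DESeq2 called, was also called in 3 further alternatives: without the low-count filter (331 of all genes called), with robust empirical Bayes (4 called) and without dKO PD1+Tim3+ replicate 1 (323 called).

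Further genes of the same pathways were read from wider lists. Of 27 tested glycolysis-related genes outside the set, 2 rose in WT PD1+Tim3+ cells: Bsg (0.59 ± 0.12), the chaperone of the lactate transporters, and Gpd2 (0.79 ± 0.13), of the glycerol phosphate shuttle. These are 7.41% of the 27, against 8.25% of all genes called higher. Gpd2 (0.68 ± 0.14) was the 1 of the 27 that rose in the libraries labelled dKO, 3.70% against 5.21% of all genes. Both shares are near or under that of all genes. None of 7 further pentose phosphate genes passed in either genotype with edgeR. At an unadjusted p under 0.05 there were 0 in the dKO-labelled libraries, against 23.7% of all genes. In WT there were 2, 1 in each direction, against 31.6% of all genes. Of 23 further hypoxia genes, 5 rose in WT, 21.7% against 8.25% of all genes: Bhlhe40 (1.14 ± 0.12), a transcriptional repressor, Epas1 (2.18 ± 0.43), which encodes HIF-2 alpha, Ero1l (0.45 ± 0.11), Mxi1 (0.89 ± 0.16), a Myc antagonist, and Plod2 (1.25 ± 0.23), a collagen lysyl hydroxylase. Of the same 23, 3 rose in the libraries labelled dKO, 13.0% against 5.21% of all genes: Bhlhe40 (0.97 ± 0.12), Epas1 (1.92 ± 0.52) and Mxi1 (1.08 ± 0.18). Epas1 was at a low level, 0.511 to 4.55 CPM on unscaled totals over the 8 libraries. In the genotype contrasts none of these further genes was called by edgeR, against 0.627% of all genes in PD1+Tim3+ and 0.0459% in PD1+Tim3- cells. At shares this low few calls could arise in lists of this size. At an unadjusted p under 0.05 the hypoxia genes that were higher numbered 1 of 23 in PD1+Tim3+ cells, beside 928 of the 13073 genes tested. In PD1+Tim3- cells they numbered 5 of 23, beside 523 of 13073.

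Other measures moved with the same contrasts. Cell cycle genes were higher in PD1+Tim3+ cells in both genotypes. In the libraries labelled dKO 17 of 24 were called (median 1.26), against 5.21% of all genes called higher. In WT 19 of 24 were called (median 0.98), against 8.25% of all genes. On unscaled totals the 24 genes summed to 1449 to 1540 CPM in dKO PD1+Tim3+, 1312 to 1393 in WT PD1+Tim3+, 997 to 1064 in dKO PD1+Tim3- and 757 to 941 in WT PD1+Tim3-. Myc, a driver of glycolytic genes, fell in PD1+Tim3+ cells in both, with log2 fold changes of -0.79 ± 0.12 (adjusted p = 0.00308) in the dKO-labelled libraries and -0.42 ± 0.11 (adjusted p = 0.0253) in WT. The 4 red cell markers summed, unscaled, to 22.8 and 89.2 CPM in dKO PD1+Tim3+, 4.47 and 29.9 in WT PD1+Tim3+, 1.99 and 2.06 in dKO PD1+Tim3-, and 1.67 and 5.49 in WT PD1+Tim3-, and the 3 globins were called higher in PD1+Tim3+ in the libraries labelled dKO. The 5 dendritic markers summed, unscaled, to 46.7 to 56.5 CPM in dKO PD1+Tim3+, 53.1 to 54.8 in WT PD1+Tim3+, 32.9 to 33.5 in dKO PD1+Tim3- and 25.6 to 26.2 in WT PD1+Tim3-. Most of that sum was Itgax, which activated CD8 T cells also express and which rose in PD1+Tim3+ cells by 0.71 ± 0.13 in the libraries labelled dKO and by 0.98 ± 0.12 in WT, while Cd209a was at 0 in 6 libraries. Macrophage markers summed, unscaled, to 13.9 to 15.8 CPM in dKO PD1+Tim3+, 15.6 to 16.6 in WT PD1+Tim3+, 6.17 to 14.7 in dKO PD1+Tim3- and 9.07 to 12.5 in WT PD1+Tim3-, with Lyz2 at most 0.745 in any library. Among them Itgam rose in WT (1.41 ± 0.43, adjusted p = 0.0442). The CD4 T cell markers Cd4 and Foxp3 summed to at most 2.73 CPM, unscaled, with Cd4 at 0 in 6 libraries, and Foxp3 rose in WT PD1+Tim3+ cells (2.75 ± 0.61, adjusted p = 0.0108). Of the 5 fibroblast and endothelial markers Pecam1 fell in WT PD1+Tim3+ cells (-0.57 ± 0.16, adjusted p = 0.0361). Most of that list's counts were Pecam1, at 20.1 to 36.7 CPM, unscaled. Col1a1 was at most 0.766, Col3a1 and Pdgfrb were at 0 in 7 libraries and Cdh5 in 6. The part of these measures in the members' values was not tested. The sources used here give no strand setting for the counting, so counts of members whose exons overlap another gene, among them Aldoa with Fam57b, Tpi1 with Spsb2, Slc2a1 with Gm12868 and Higd1a with Gm47112, may include reads of the neighbour. Gapdh, Pgk1 and Ldha have many processed copies in the mouse genome, and how reads matching several places were counted is not given either.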

How the data were processed

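The authors deposited raw counts, 1 row for each gene symbol, in a single table of all 8 libraries; its last line, which holds the totals, was left out. Per the submitters' processing notes, cutadapt 1.18, Bowtie2 2.2.5 and the build mm10 were used; how genes were counted, and with which annotation, was not stated in the sources used here. Column names of PD1+Tim3- libraries show only PD1, and were assigned since Tim3+ has columns of its own.

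Counts were tested with the edgeR 4.0.16 quasi-likelihood F test in R 4.3.3, with TMM scaling, the default filter on low counts, 1 fit of 4 group means with 4 residual degrees of freedom, and Benjamini-Hochberg adjustment over 13073 genes, called under 0.05. SE was taken as log2 fold change divided by the root of F. The steps were tested on simulated counts. With 2 libraries a group, p-values rest on groups varying alike. Libraries of a group differed beyond sampling noise, and unevenly by group. Chi-square per gene was 10.3 in dKO PD1+Tim3+, 3.14 in WT PD1+Tim3+, 3.10 in dKO PD1+Tim3- and 16.1 in WT PD1+Tim3-. Alternatives included DESeq2 1.42.0, limma-voom (limma 3.58.1), other scalings and filters, each library left out, and Eno1 summed with Eno1b, the last chosen after seeing the data. Places and lengths came from GENCODE M21 on GRCm38. Every member called in any contrast is given with all its values, and further members by their step in the pathway. The members and lists were chosen with earlier results of these data known.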

Additional observations from a re-analysis of the deposited data

Results flagged for a closer look

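Higd1a was called in PD1+Tim3+ against PD1+Tim3- cells in both genotypes with opposite signs, which is why it is listed here: it rose in the libraries labelled dKO (0.51 ± 0.14, adjusted p = 0.0493) and fell in WT (-0.66 ± 0.13, adjusted p = 0.00785). Both dKO PD1+Tim3+ libraries stood above both dKO PD1+Tim3- libraries, and both WT PD1+Tim3+ libraries below both WT PD1+Tim3- libraries. The interaction was 1.163 on the log2 scale and did not pass with edgeR (adjusted p = 0.2). It was called in 4 of its 21 alternatives, over which the log2 value ran from 0.91 to 1.32 and the adjusted p from 2.9e-06 to 0.715.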

How the results depend on the processing

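No value changed sign past the threshold. Members called between populations in WT numbered 16, against 7 with DESeq2, 8 with a replicate block within genotype, 11 with a replicate block of 2 levels, and 4 to 17 with 1 library left out. In the libraries labelled dKO the 1 call became 0 with DESeq2, relative log expression (RLE) size factors, the 4 libraries of the contrast alone, either replicate block, transcript length offsets, and without replicate 2 of both dKO groups; with limma-voom and without dKO PD1+Tim3+ replicate 2 the 1 call was Aldoa and Higd1a was lost; it became 2 without the low-count filter and with robust empirical Bayes, and 0 to 2 with 1 library left out. Between genotypes in PD1+Tim3+ cells the 1 call became 0 with DESeq2, the 4 libraries alone and without replicate 2 of both dKO groups, 2 without the filter or with robust empirical Bayes, and 0 to 2 with 1 library left out. In PD1+Tim3- cells the 0 became 2, Eno3 and Higd1a, without the filter and stayed 0 with any library left out. The interaction's 0 became 1, Higd1a, with DESeq2, without the filter and with robust empirical Bayes, and 0 to 1 with 1 library left out. Calls over all genes changed in the same fits, and the cause was not tested. In the WT population contrast 2223 became 1303 with DESeq2, 1528 with the block within genotype and 1672 with the block of 2 levels. In the libraries labelled dKO 1298 became 940 with DESeq2. Without the filter 23672 genes were tested instead of 13073. All-gene calls between genotypes then went from 6 to 232 in PD1+Tim3- cells and from 82 to 486 in PD1+Tim3+ cells. Those of the interaction went from 0 to 331.

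Same-numbered libraries of compared groups did not deviate together (Pearson r across genes -0.0585 to -0.0146). With so few libraries this cannot show whether PD1+Tim3+ and PD1+Tim3- libraries came from the same mice, which the labels do not number. Among the members, depth limits Eno2, Vegfa, Pfkfb4, Pfkm, Aldoc, Bnip3 and Ldhb most, which stood below 13 CPM in every library.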
